A study of Rattus norvegicus with 8 samples.

Results

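The miR-15/16 seed family consists of the miRNAs that carry the seed AGCAGCA, and it was taken here as rno-miR-15a-5p, rno-miR-15b-5p, rno-miR-16-5p, rno-miR-195-5p, rno-miR-322-5p and rno-miR-497-5p. The members were the array entries with exactly these miRNA names, and all 6 were found among the 758 rat miRNAs on the array. The study compared synovial tissue of the left knee of Sprague-Dawley rats after anterior cruciate ligament transection (ACLT), a surgical model of osteoarthritis in which the ligament is cut, with tissue after a sham operation in which the ligament was exposed and left whole. Each group had 4 arrays, numbered 1 to 4 in the labels, and every array measured 1 sample of total RNA. Both groups shared the opened joint and the dislocated and replaced kneecap, and the tissue came from the side of the knee away from the incision. The age and sex of the rats are not given in the sources used here. The sampling time is given as 2 weeks in the protocol, as 14 days in the series title and as 7 days in the design text. Whether the 4 samples of a group are 4 animals is not stated in the labels, and the p-values below cover the spread among these samples alone, part of which may be technical.

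A miRNA guides Argonaute proteins to messenger RNAs that pair with its seed, the stretch from base 2 to base 8, and lowers their translation or stability. The family is best known for restraining the cell cycle, with cyclins, cyclin-dependent kinases and the apoptosis inhibitor Bcl2 among its known targets. In mammals its members are made from paired genes: miR-15a with miR-16, miR-15b with miR-16, miR-497 with miR-195, and miR-322 (called miR-424 in humans) with miR-503. Because miR-16 is made from both of the first pairs, its signal cannot be assigned to either one.

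The mature sequences below show what the members share and where they part, with the family seed in capitals; they are from RefSeq for rat assembly GRCr8, which held 5 of the 6 members. miR-15a-5p is therefore given by name only.
rno-miR-15b-5p: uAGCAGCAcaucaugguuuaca
rno-miR-16-5p: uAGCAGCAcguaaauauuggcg
rno-miR-195-5p: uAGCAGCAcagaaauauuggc
rno-miR-497-5p: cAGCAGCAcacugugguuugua
rno-miR-322-5p: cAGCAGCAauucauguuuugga
rno-miR-107-3p: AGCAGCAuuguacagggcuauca
rno-miR-503-5p: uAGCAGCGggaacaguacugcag
The last pair are relatives outside the family, shown for contrast. In miR-107-3p the same heptamer starts at base 1 in place of base 2, and in miR-503-5p the heptamer at bases 2 to 8, in capitals, differs from the family seed by A8G, counted from the 5′ end with the family's base first. Of the 693 mature rat miRNAs in the RefSeq table, 5 carried the heptamer at bases 2 to 8, a share of 0.722%. A further 2 carried it at bases 1 to 7, miR-103-3p and miR-107-3p.

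Outside the seed the members differ. miR-16-5p and miR-195-5p were identical at 19 of 21 compared bases and differed by G10A and U11G, with miR-16-5p's base first. The probes of this pair could therefore pick up some of each other's RNA, and the separation of these 2 signals is uncertain. The other pairs with a known sequence were identical at 50.0% to 72.7% of their compared bases.

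The genes of the 5 members in the RefSeq table lie on 3 chromosomes in GRCr8. The miR-15a pair, the other source of miR-16-5p, is not placed here. miR-15b-5p (chr2:155555197-155555218, plus strand) and miR-16-5p (chr2:155555343-155555364, plus strand) lie within the span of Smc4, a subunit gene of the condensin complex, and their hairpins are 51 bases apart. miR-497-5p (chr10:55450172-55450193, plus strand) and miR-195-5p (chr10:55450509-55450529, plus strand) have no host gene in the table, and 255 bases separate their hairpins. miR-322-5p (chrX:137726198-137726219, minus strand) lies within the span of the long non-coding RNA LOC102550366, as does miR-503-5p, with 220 bases between the hairpins. The table does not say whether these positions are exonic or intronic.

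The arrays were Agilent 1-colour miRNA arrays on 1 slide, and they differed in brightness. A set of 136 probes stood well above background on every array, and the 75th percentile of their intensity lay between 289 and 1185 units, and ACLT replicates 1 and 2 and sham replicate 4 were the brightest, at 797, 1097 and 1185. No spot was saturated. Each array was divided by this percentile, and all levels below are log2 of the scaled intensity, so that 0 is the array's own 75th percentile. Of the 758 miRNAs, 113 were tested, and 78 of these were above the floor of -4.48 on every array. Markers of mesenchymal cells, the lineage of synovial fibroblasts, were present: miR-199a-5p, miR-199a-3p and miR-214-3p were detected on all 8 arrays. This does not tell synovium from other tissue that holds such cells, and striated muscle miRNAs, given below, were detected too. In bulk tissue, fewer cells of a type and less RNA per cell cannot be told apart.

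All 6 members were detected on all 8 arrays, and none differed detectably between ACLT and sham synovium. The largest distance between the group means of a member was -0.26 on the log2 scale (ACLT minus sham, for miR-15a-5p), and 0 members passed an adjusted p of 0.05 in limma's test across the 113 miRNAs. The background was also 0 of 113, or 0%. At an unadjusted p under 0.05 there were 8 of 113 miRNAs, or 7.08%, and 0 of them were members. In no member did the groups separate without overlap, and among all tested miRNAs this count was 0, or 0%. The smallest adjusted p of any tested miRNA was 0.645.

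miR-15a-5p and miR-15b-5p are the partners of miR-16-5p in its gene pairs. miR-15a-5p had levels of -2.59, -2.40, -3.32 and -3.41 on ACLT replicates 1 to 4, and of -2.76, -2.49, -3.06 and -2.37 on sham replicates 1 to 4. ACLT replicates 3 and 4 were the lowest arrays, the other ACLT arrays lay inside the sham range, and the groups overlapped. The means were -2.93 ± 0.51 (SD, n = 4) in ACLT and -2.67 ± 0.30 (SD, n = 4) in sham tissue. The difference of -0.26 (SE 0.28; 95% interval -0.92 to 0.40) had a limma adjusted p of 0.840. miR-15a-5p had the widest scatter of the family, a 2.05-fold range over the 8 arrays. Its unscaled intensity was 35.4 and 28.7 units on ACLT replicates 3 and 4, against 229 on sham replicate 4. With normexp background correction, an alternative with an offset of 50 units, the SE of the difference was 0.098. The spread of this dim signal thus depended on the background correction.

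miR-15b-5p had levels of -1.25, -1.07, -1.79 and -1.76 on ACLT replicates 1 to 4, and of -1.71, -1.36, -1.79 and -1.08 on sham replicates 1 to 4. High and low arrays occurred in both groups, and the ranges nearly coincided. The means were -1.47 ± 0.36 and -1.48 ± 0.33 (SD, n = 4 each), a difference of 0.015 (SE 0.23; 95% interval -0.53 to 0.56; limma adjusted p = 0.992). It was the member with a difference above 0, and its probes disagreed in sign: the dimmer probe gave -0.01.

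miR-16-5p, the namesake of the family and often abundant in blood and solid tissue, had levels of 1.89, 2.19, 1.48 and 1.49 on ACLT replicates 1 to 4. On sham replicates 1 to 4 they were 1.95, 2.20, 1.56 and 2.14. Sham replicate 3 lay with the low ACLT arrays 3 and 4, and ACLT replicate 2 lay with the high sham arrays. The means of 1.76 ± 0.34 in ACLT and 1.96 ± 0.29 in sham tissue (SD, n = 4 each) differed by -0.20 (SE 0.21; 95% interval -0.70 to 0.30; limma adjusted p = 0.840).

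miR-195-5p and miR-497-5p, made from one gene pair, are known for rising after birth in muscle and heart and for restraining cell division there. miR-195-5p had levels of 0.29, 0.54, 0.18 and 0.0041 on ACLT replicates 1 to 4, and of 0.38, 0.74, -0.07 and 0.69 on sham replicates 1 to 4. miR-497-5p had levels of 0.33, 0.51, 0.18 and 0.13 on the ACLT arrays and of 0.47, 0.81, -0.09 and 0.67 on the sham arrays, in the same order. For both miRNAs sham replicate 3 was the lowest of all 8 arrays and sham replicate 2 the highest, so the sham range enclosed the whole ACLT range. miR-195-5p differed by -0.18 (SE 0.20; 95% interval -0.67 to 0.30; limma adjusted p = 0.840) between means of 0.25 ± 0.22 and 0.44 ± 0.37 (SD, n = 4 each). miR-497-5p differed by -0.17 (SE 0.20; 95% interval -0.65 to 0.31; limma adjusted p = 0.840) between means of 0.29 ± 0.17 and 0.46 ± 0.40 (SD, n = 4 each). These are the members in which the ACLT arrays lay closest together. With single arrays left out, the difference of miR-497-5p ran from -0.36 without sham replicate 3 (limma unadjusted p = 0.0288, adjusted 0.731) to -0.06 without sham replicate 2 (unadjusted p = 0.785, adjusted 1).

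miR-322-5p, known as an inhibitor of cell cycle progression in muscle precursors, had levels of -2.93, -2.38, -3.22 and -3.07 on ACLT replicates 1 to 4. On sham replicates 1 to 4 they were -2.81, -2.72, -3.14 and -2.32. ACLT replicate 2 and sham replicate 4 stood above the other arrays of their groups, and the groups overlapped. The means of -2.90 ± 0.37 and -2.75 ± 0.33 (SD, n = 4 each) differed by -0.15 (SE 0.23; 95% interval -0.71 to 0.40; limma adjusted p = 0.840).

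**Figure D1:**
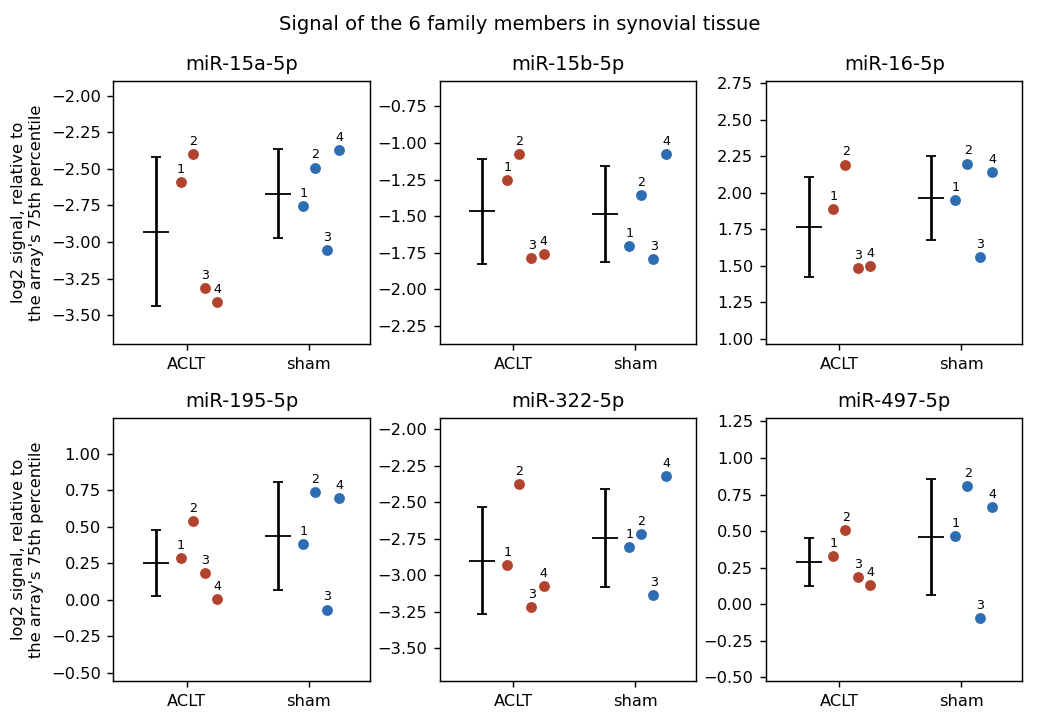
Log2 signal of each of the 6 members on the 8 arrays, relative to the array's 75th percentile; points are arrays with their replicate number, and the bar to their left is the mean ± SD of the 4 arrays of a group. The groups overlap in every panel, and the vertical axes span equal lengths around different levels.

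The differences of the family can be set beside those of the other miRNAs as a description. The median difference was -0.18 over the 6 members and -0.07 over the 113 tested miRNAs. Differences were below 0 in 5 of 6 members and in 73 of 113 miRNAs, or 64.6%. Every interval of a member included 0, and each extended to -0.53 or lower, so a difference of -0.53 in any member lies within the error of this comparison. The array signals of different probes depend on the probe, so the members' levels were not ranked against each other.

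**Figure D2:**
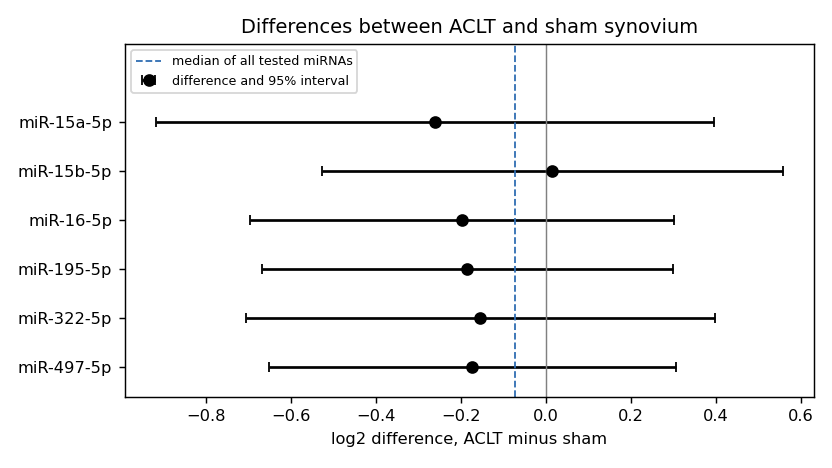
Difference in log2 signal, ACLT minus sham, for each member with its 95% interval from limma (n = 4 arrays per group). All 6 intervals cross 0, and the dashed line marks the median of all tested miRNAs at -0.07.

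Each member was measured by 2 probes with 8 spots each, and the brighter probe gave the values above. The dimmer probe of miR-16-5p gave a difference of -0.26, that of miR-195-5p -0.25, that of miR-322-5p -0.17 and that of miR-497-5p -0.15, with the same sign as the brighter probe in each. The dimmer probe of miR-15a-5p gave -0.07, but it was at the floor on 6 arrays and well above background on 3. For miR-15a-5p the value therefore rests on 1 probe.

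The members varied together from array to array. With each member set to its own mean over the 8 arrays, the family mean on ACLT arrays 1 to 4 was 0.04, 0.32, -0.33 and -0.35, and that on sham arrays 1 to 4 was 0.0066, 0.28, -0.34 and 0.37. ACLT replicates 3 and 4 and sham replicate 3 were thus low, and ACLT replicate 2 and sham replicates 2 and 4 were high. ACLT replicate 2 and sham replicate 4 were also among the brightest arrays, at 1097 and 1185 units, but sham replicate 2 was dim, at 317. The difference between the group means, -0.16, was smaller than the SD within each group, 0.32 (n = 4). The SD over all 8 arrays ran from 0.296 for miR-497-5p to 0.413 for miR-15a-5p, against a median of 0.291 for the 78 miRNAs above the floor on every array.

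The 3 arrays on which the family was lowest were the 3 with the most signal from striated muscle miRNAs. The summed level of 7 such miRNAs, with values at the floor counted as 0, was 5.05, 0.0459, 13.8 and 16.4 times the array's 75th percentile on ACLT replicates 1 to 4. In sham tissue, in the same order, it was 2.70, 1.43, 6.30 and 2.22. Of the 7, 6 were detected on at least 1 array, and miR-208b-3p, a miRNA of slow muscle fibres, was at the floor on all 8. The dip was not the family's alone: of the 72 other miRNAs above the floor on every array, 25 also lay below their own mean on each of these 3 arrays. With the scaling above, the mesenchymal sum was lower there too, at 4.61 to 5.50, against 6.79 to 8.48 on the other 5 arrays. That count and these sums were not recomputed without the muscle probes. Bright muscle probes enter the percentile that each array is divided by. With the muscle probes left out of it, ACLT replicates 3 and 4 and sham replicate 3 remained the 3 lowest for the family, at -0.27, -0.11 and -0.27. The brightest arrays, ACLT replicates 1 and 2 and sham replicate 4, were then the highest, at 0.088, 0.26 and 0.33. Sham replicates 1 and 2 were at -0.023 and -0.0095. The part of brightness in this order was not tested. Without the muscle probes the range over the 8 arrays was 0.607, against 0.723 with them. The difference between the group means of the family was then -0.016. Leaving out the muscle probes moved the family on sham replicate 2 from 0.28 to -0.0095, and on ACLT replicate 4 from -0.35 to -0.11. Such a change of scaling moves the mesenchymal miRNAs alike, so the split of their sums may not hold.

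**Figure D3:**
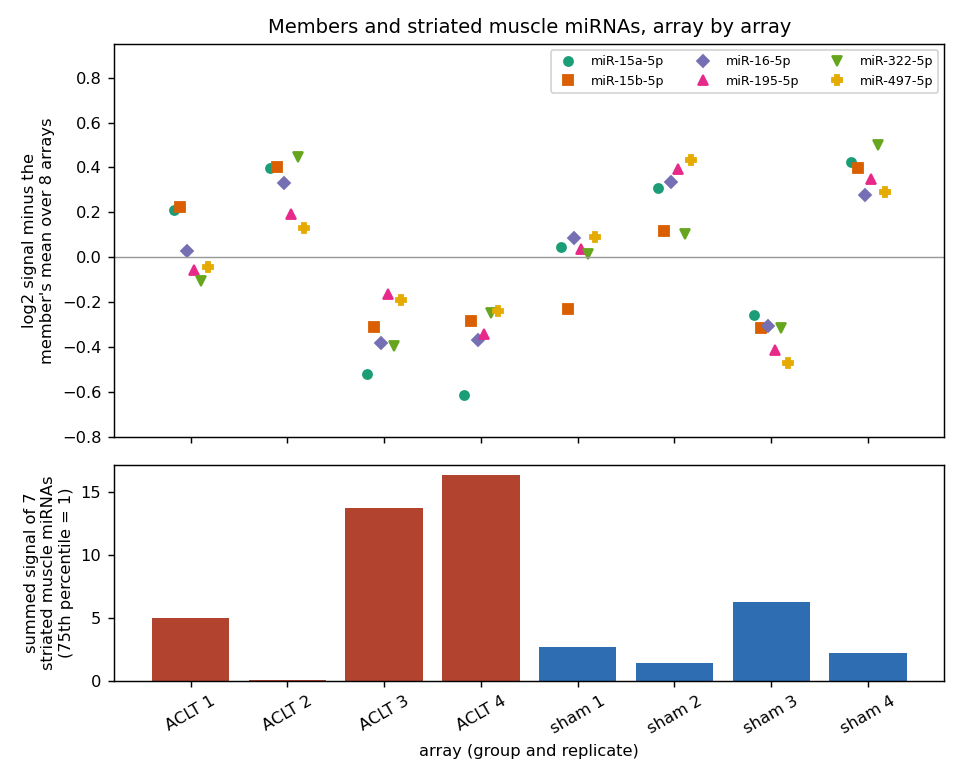
Top, log2 signal of each member on each array minus that member's mean over the 8 arrays; bottom, the summed scaled signal of 7 striated muscle miRNAs on the same arrays, with ACLT in red and sham in blue. The family lies lowest on ACLT replicates 3 and 4 and sham replicate 3, where the muscle sum is 13.8, 16.4 and 6.30.

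Markers of other cells were measured in the same way. The erythroid sum (3 miRNAs, with miR-144-5p at the floor on all arrays) ran from 0.423 to 0.924 in ACLT and from 0.445 to 1.43 in sham tissue. The leukocyte sum (5 miRNAs, with miR-142-5p and miR-155-5p at the floor) ran from 0.120 to 0.226 in ACLT and from 0.199 to 0.276 in sham tissue. The endothelial sum (2 miRNAs, with miR-126a-5p at the floor) ran from 0.855 to 1.08 and from 0.896 to 1.39, and the mesenchymal sum (3 miRNAs, none at the floor on all arrays) from 5.25 to 8.48 and from 4.61 to 7.20. These ranges overlap between the groups, and the part of any of these cells, or of muscle, in the members' values was not tested.

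Likeness between miRNAs was described by the root mean square difference of their centred log2 levels over the 8 arrays, for the 78 miRNAs above the floor on all of them. The points share the array and its brightness. miR-195-5p and miR-497-5p were the closest members, at 0.0573, and each was the other's nearest miRNA. Their ranking was the second smallest among all 3003 pairs, and the median was 0.366. The 15 pairs within the family had a median of 0.175 and reached 0.241.

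Several members had a nearest miRNA outside the family. miR-16-5p was nearest to miR-99a-5p, at 0.0634, and then to miR-195-5p, at 0.109. miR-15b-5p was nearest to miR-10b-5p, at 0.0952, and let-7f-5p, at 0.108. miR-322-5p was nearest to miR-146a-5p, a miRNA induced by NF-kappaB signalling, at 0.112, with miR-16-5p next at 0.139. For miR-15a-5p the nearest was miR-16-5p, at 0.134, followed by miR-199a-3p at 0.174, and for miR-497-5p the next after miR-195-5p was miR-99a-5p, at 0.116.

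Partners made from one gene pair can be compared within an array, where the scaling cancels but other differences between arrays may remain. The ratio of one probe to another has no absolute meaning, and only its change between arrays is read here. For miR-195-5p over miR-497-5p the log2 ratio stayed within 0.165 over all 8 arrays and its group means differed by -0.01 (p = 0.857 in a two-sided exact permutation test, 0.857 after adjustment over 3 ratios). For miR-15a-5p over miR-16-5p the difference was -0.06 (exact permutation p = 0.6, adjusted 0.857). It was 0.16 within slide row 1 and -0.29 within slide row 2. This ratio was highest on the brightest arrays, at -4.48 and -4.59 on ACLT replicates 1 and 2 and -4.52 on sham replicate 4. On the other arrays it ran from -4.91 to -4.61, and the part of brightness was not tested.

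For miR-15b-5p over miR-16-5p the log2 ratio was -3.14, -3.27, -3.27 and -3.25 in ACLT tissue and -3.65, -3.56, -3.35 and -3.22 in sham tissue, each in the order of replicates 1 to 4. The ACLT arrays lay close together, and sham replicates 1 to 3 lay below all of them, but sham replicate 4 lay inside the ACLT range. ACLT replicate 1 and sham replicate 4, the highest, are among the brightest arrays, but ACLT replicate 2, also bright, was at -3.27. The mean ratio was 0.21 higher in ACLT than in sham tissue (exact permutation p = 0.114, adjusted over 3 ratios 0.343; smallest possible p 0.0286). With single arrays left out, the difference ran from 0.14 without sham replicate 1 (exact permutation p adjusted over 3 ratios 0.571) to 0.29 without sham replicate 4 (adjusted 0.0857). The latter leaves groups that do not overlap, because the array left out is the sham array inside the ACLT range. The difference was 0.40 within slide row 1 and 0.023 within slide row 2. Both ACLT arrays of row 1 were bright and both of its sham arrays dim, so group and brightness cannot be told apart there.

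**Figure D4:**
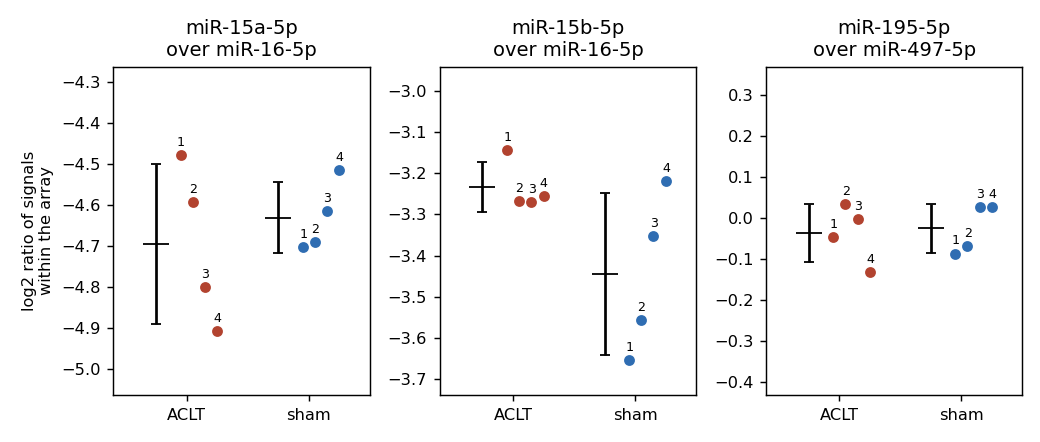
Log2 ratio of the signals of 3 partner pairs within each array; points are arrays with their replicate number, and the bar to their left is the mean ± SD of the 4 arrays of a group. The groups overlap in each panel, and for miR-15b-5p over miR-16-5p sham replicate 4 alone of the sham arrays lies inside the ACLT range.

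The slide has 2 rows of arrays, of which row 1 carried ACLT and sham replicates 1 and 2 and row 2 the rest. Within row 1 the differences were 0.13 for miR-15a-5p, 0.37 for miR-15b-5p, -0.03 for miR-16-5p, -0.15 for miR-195-5p, 0.11 for miR-322-5p and -0.22 for miR-497-5p. Within row 2 they were -0.65, -0.34, -0.36, -0.22, -0.42 and -0.13 in the same order. The signs of miR-15a-5p, miR-15b-5p and miR-322-5p thus turned between the rows, with 2 arrays per group in each. In row 1 limma called 8 of 113 miRNAs, or 7.08%, and 0 of them were members. In row 2 it called 0. The ACLT arrays of row 1 were bright, at 797 and 1097 units, and its sham arrays dim, at 289 and 317. Group and brightness can therefore not be told apart within row 1. Sham replicate 4, at 1185, was the brightest array of row 2.

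The direction of the family difference also turned with the scaling between arrays. Scaled to the 75th percentile of all probes, the median of the members was 0.20 and that of all tested miRNAs 0.25. With no scaling these were 0.15 and 0.19. With the deposited value table, which is also unscaled, they were 0.14 and 0.21. With quantile normalization they were -0.18 and 0, with 55 of 113 miRNAs below 0. A median of exactly 0 can come from miRNAs held at the floor on every array, so it need not mean that a typical miRNA was unchanged. Scaled to the dmr_285 pair of spike-in control probes, the medians were -0.31 and -0.21, in the same order. In each of these scalings the members' median minus that of all tested miRNAs lay between -0.18 and -0.043, and 0 members were called. Dividing an array by a single number moves every miRNA above the floor alike. Under such scalings the gap between the medians can change only through the floor, so they are not separate evidence for it. The spike-in value depends on which control probes are used. Scaled to each of 8 other spike-in sets alone, an alternative chosen after seeing the data, the members' median ran from -0.65 to 0.61 and was below 0 with 6 sets and above 0 with 2. It lay below the median of all tested miRNAs with 7 of the 8, which for the same reason is not separate evidence. The sign of the family's difference thus depended on the scaling.

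**Figure D5:**
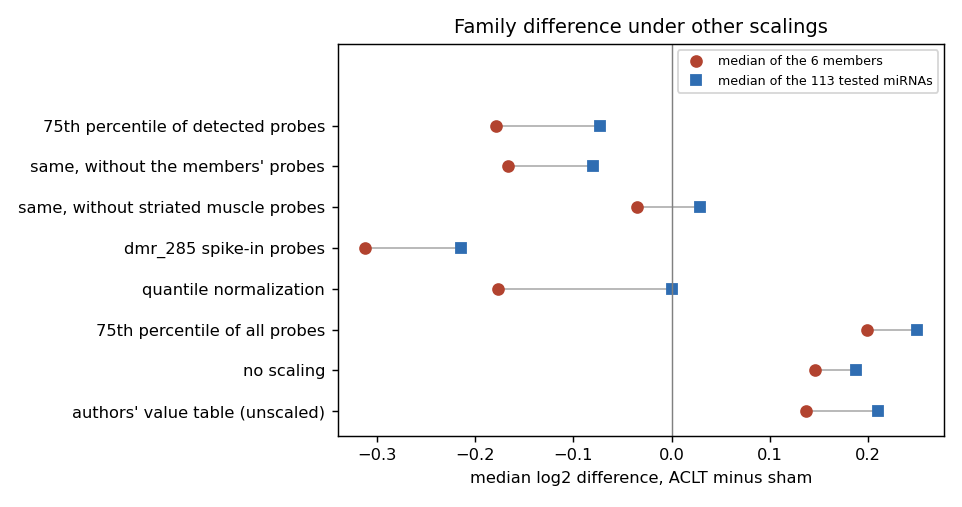
Median log2 difference, ACLT minus sham, of the 6 members (red circles) and of the 113 tested miRNAs (blue squares) under 8 ways of scaling the arrays. The median of the members runs from -0.31 to 0.20. Under quantile normalization and without striated muscle probes it is below 0, while that of all tested miRNAs is 0 and 0.029. The median of 0 can come from miRNAs held at the floor.

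The partner strands and cluster neighbours of the members were near the limit of the arrays. Of 5 other arms (miR-15b-3p, miR-16-3p, miR-195-3p, miR-322-3p and miR-497-3p), 1 was detected on any array: miR-322-3p, on ACLT replicate 2 and sham replicate 4. miR-15a-3p, added afterwards, was detected on 0 arrays. Of 8 neighbours of miR-322 (both arms of miR-503, miR-351, miR-542 and miR-450a), 4 were detected on any array. miR-503-5p and miR-450a-5p were detected on ACLT replicates 1 and 2 and sham replicate 4, and both arms of miR-542 on ACLT replicate 2 and sham replicate 4. These are the brightest arrays, all of the listed arms and neighbours were at the floor on all arrays after scaling, and 0 were tested.

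The relatives with the shifted heptamer, miR-103-3p and miR-107-3p, which lie in introns of pantothenate kinase genes and are known for their role in insulin signalling, were detected on all 8 arrays. miR-103-3p had means of -1.89 ± 0.13 in ACLT and -1.74 ± 0.18 in sham tissue (SD, n = 4 each), a difference of -0.15 with a limma adjusted p of 0.806. miR-107-3p had means of -1.97 ± 0.09 and -2.07 ± 0.26 (SD, n = 4 each), a difference of 0.10 with a limma adjusted p of 0.840. Of these 2 relatives, 0 passed the test.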

How the data were processed

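Total RNA (RNAiso plus, per the labels) was hybridised to Agilent 1-colour rat miRNA arrays. The kit named in the labels for Cy3 labelling is one made for messenger RNA, which leaves the labelling of these miRNA arrays unclear. The deposited scanner files hold spot intensity, background-subtracted by Agilent Feature Extraction 10.7.3.1 per the file headers, and detection flags.

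Control and outlier spots were left out, the spots of a probe were averaged, and each array was divided by the 75th percentile of the 136 probes, of 1806, well above background on all 8 arrays. Values under 0.0449 (the median over arrays of the lowest signal well above background) were set to it, and log2 was taken. A miRNA is its brighter probe. The 113 miRNAs with a detection flag throughout the 4 arrays of either group were tested with limma 3.58.1 in R 4.3.3 (eBayes, Benjamini-Hochberg, threshold 0.05) over all of them. Ratios were tested by exact permutation. Precision is limited by the number of arrays. The deposited value table, equal to the Feature Extraction summary intensity and neither scaled nor centred, served as an alternative, as did other scalings, floors, filters, variance models, slide row, replicate number and leaving out arrays. The spike-in scaling used the dmr_285 control probes, whose role in labelling the files do not state, and, added after seeing the data, each other spike-in set with every probe over an intensity of 50.

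Named are the 6 members, their other arms, cluster neighbours and relatives, and the 2 miRNAs most like each member. The members, lists and settings were chosen with earlier results of these data known.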

Additional observations from a re-analysis of the deposited data

Results flagged for a closer look

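The log2 ratio of miR-15b-5p over miR-16-5p was -3.14 on ACLT replicate 1, apart from the other ACLT arrays at -3.27 to -3.25. The gap to the nearest array was 0.881 of the group's whole range, above Dixon's 95% critical value for 4 samples. In 20 group values examined this was the 1 such case, and chance gives about 1 in 20.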

How the results depend on the processing

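With 36 alternatives, 8 of them added after seeing the data, 0 miRNAs were called except within slide row 1, where 8 were. Both ACLT arrays of that row were brighter than both of its sham arrays. The median of the members turned positive with the 75th percentile of all probes (0.199), with no scaling (0.146), with the deposited table (0.137) and within slide row 1 (0.038). Among the 8 added spike-in sets it was positive with dmr_3 (0.605) and dmr_6 (0.577) and fell furthest with hur_4 (-0.653). With the percentile of all probes, no scaling and the deposited table, in that order, the differences of miR-16-5p were 0.180, 0.127 and 0.110, of miR-195-5p 0.193, 0.140 and 0.119, of miR-322-5p 0.223, 0.170 and 0.164, and of miR-497-5p 0.204, 0.151 and 0.156. For miR-15a-5p the former 2 gave 0.117 and 0.0634. Within slide row 1 miR-15a-5p gave 0.129 and miR-322-5p 0.109. miR-15b-5p turned negative with dmr_285 spike-in scaling (-0.118), with normexp background correction (-0.0287) and within slide row 2 (-0.338). Without single arrays it ran from -0.116 to 0.151, and the members' median from -0.34 to -0.10. The ratio of miR-15a-5p over miR-16-5p turned with the mean of all probes (0.0615) and within slide row 1 (0.161, against -0.289 within slide row 2). It ran from -0.136 to 0.00719 without single arrays. The ratio of miR-195-5p over miR-497-5p was 0.0713 within slide row 1 and ran from -0.0348 to 0.0203 without single arrays. The cause of these turns was not tested. With the replicate number as a block, 0 miRNAs were called and 4 had an unadjusted p under 0.05 in limma's test, against 8 without it. Same-numbered arrays deviated together with correlations of -0.193, 0.592, 0.799 and -0.410, so the numbers were not taken as pairs, and 3 of 8 arrays were closest to their own number. The number of arrays and the dim signal of the partner strands limit what can be seen.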
